A study of Mus musculus with 24 samples.

Results

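Bone from mice given a standard proton beam was compared with bone from untreated mice across all expressed genes. The comparison took the 4 bone libraries labelled S-PRT and the 4 bone libraries labelled Untreated, 8 of the 24 libraries in the series. S-PRT is read here as standard proton radiotherapy, a proton beam given at a conventional dose rate. The 4 bone libraries labelled F-PRT, which is taken to mean FLASH, a beam at an ultra-high dose rate, shared the estimate of the spread and served for 1 test of the difference between beams. All animals were female and 10 weeks old, and the polyA RNA of whole bone was sequenced. The series is titled for a mouse sarcoma model, but the labels of these libraries name no tumour, strain, genotype, dose, irradiated field or time between beam and harvest. The labels number the 4 libraries within a group as biological repeats but do not say whether each came from its own animal. If some did not, the p-values measure only the spread between these samples, which may be partly technical.

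Whole bone holds mineralised tissue, its stroma and vessels, and the marrow where blood cells are made. Dividing blood precursors are known to be among the cells most sensitive to radiation, while osteoblasts, stromal cells and vessel cells divide less. Broken DNA activates the kinase ATM and the transcription factor p53, and p53 switches on genes that stop the cell cycle or start cell death. In bulk RNA, fewer cells of a type and less RNA per cell cannot be told apart, and a gene can take a larger share of the counts because other genes take less.

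Total expected counts per library were 13832813 to 17361430 in S-PRT and 10909649 to 16211858 in Untreated. Untreated 1 was the shallowest library and stood apart in its makeup. Models of ribosomal RNA, 7SK and 7SL held 17.3% of its counts, against 8 to 12% in the other untreated libraries and 6.74 to 8.31% in S-PRT. Its mitochondrial share was 6.81%, against 2.81 to 3.12% in the other untreated libraries and 4.34 to 5.73% in S-PRT. Defining markers of bone and marrow were present in each of the 8 libraries: Bglap, the osteoblast protein osteocalcin, lay at 291 CPM (counts scaled to library size) or more, and Hbb-bs, an adult beta globin, at 4390 CPM or more. The part of depth and library makeup in the changes below was not tested, and counts that move by over 1.5 times when a library is left out are given beside their result. Outside these, 3 counts of 0 became 1: mature neutrophil genes that rose without Untreated 3, and cytotoxic cell and keratinocyte genes that fell without Untreated 1. Levels below are CPM with TMM scaling, means carry the SD over n = 4 libraries, and log2 changes are S-PRT minus Untreated with their standard error (SE).

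Of 18848 genes tested, 2512 rose and 2868 fell at an adjusted p under 0.05 (edgeR's quasi-likelihood test). These calls were 28.5% of the genes tested, 13.3% rising and 15.2% falling, and these shares are the background for every group of genes below. Falls reached further than rises: 960 genes fell at least 2-fold and 100 fell at least 8-fold, while 673 rose at least 2-fold and 11 rose at least 8-fold. The median log2 change over all genes tested was -0.01, with quartiles at -0.32 and 0.32. The 4 libraries of one group lay wholly above or below the other for 4983 genes (26.4%). Among protein-coding genes 32.1% were called, and 15.7% among other models. The plot of adjusted p against change shows granule genes at the far left, platelet genes at the top left and p53 targets with matrix genes at the top right.

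**Figure D1:**
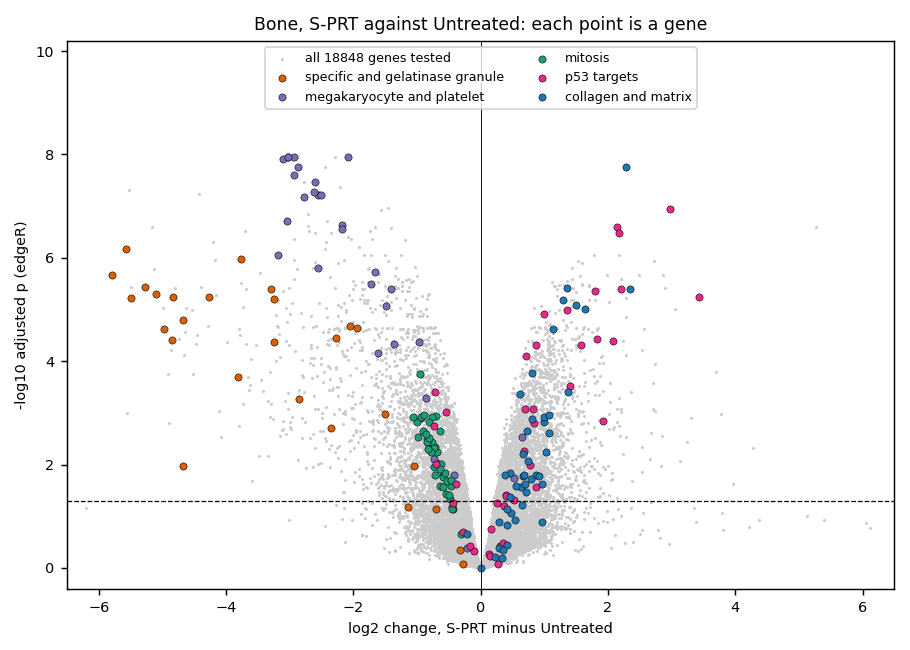
Each point is a gene, with its log2 change from Untreated to S-PRT on the x axis and the negative log10 of its adjusted p on the y axis; the dashed line marks 0.05 and 5 gene lists are coloured. Specific granule genes reach a log2 change of -5.79 (Olfm4), and the platelet gene Mpig6b holds the smallest adjusted p, 1.11e-08.

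The genes with the largest falls were mostly made by neutrophils and their precursors, and the largest rises included a B cell chemokine, p53 targets and secreted modulators of growth factors. Olfm4, a protein of neutrophil specific granules, fell from 46.2 ± 19.0 to 0.808 ± 0.553 CPM, a 55.4-fold lower level. Ceacam10 (47.8-fold lower), Rag1 (46.1-fold), Ly6g (45.3-fold), Ltf (45.01-fold), Camp (38.7-fold), Itgb2l (34.9-fold), Ngp (34.2-fold), Aldh3b3 (31.7-fold), Mmp8 (31.3-fold), S100a9 (29.2-fold) and Lcn2 (28.7-fold) followed. Rag1, which with Rag2 rearranges antigen receptor genes, marks developing lymphocytes, and Ly6g is the surface antigen used to identify mouse neutrophils. Cxcl13, the chemokine that attracts B cells, rose from 0.953 ± 0.335 to 37.3 ± 10.5 CPM, a 38.7-fold higher level. It was followed by Eda2r (10.8-fold higher), Sfrp2 (8.27-fold), Cdkn1a (7.83-fold), Zfp365 (7.41-fold), Xcr1 (6.65-fold), Fst (6.63-fold), Ces2e (5.94-fold), Tlr11 (5.80-fold), Marco (5.78-fold), Cxcl9 (5.58-fold) and Ccl8 (5.15-fold). These 24 were chosen as the largest changes among protein-coding genes whose groups did not overlap and that stayed past the test when each of the 12 bone libraries was left out in turn. Only genes averaging 2 CPM or more were eligible, and names that start with Gm and a number or end in Rik were left out. The gene of smallest p was Mpig6b, a platelet receptor. Adpgk, a glucokinase that uses ADP (log2 change -2.89), and Syne1, a nuclear envelope protein (-2.28), were also among the 5 smallest. These last 2 genes and, further below, list members outside the 5 of smallest p in their list were chosen as examples after their values were seen.

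Targets of p53 rose as a group. Of 40 listed targets tested, 24 rose (60%), 5 fell (12.5%, under the 15.2% of all genes) and 11 did not pass. The median log2 change was 0.69. Cdkn1a encodes p21, the inhibitor of cyclin-dependent kinases through which p53 halts the cell cycle. Its S-PRT libraries held 120, 130, 119 and 153 CPM and its untreated libraries 18.1, 15, 18.7 and 14.8 CPM. Every S-PRT library thus lay far above the highest untreated one, and the log2 change was 2.97 ± 0.17 (adjusted p = 1.13e-07). Eda2r, a death-domain receptor of the tumour necrosis factor family, lay at 14.8, 29, 21.6 and 27.6 CPM after S-PRT and at 4.23, 1.07, 1.93 and 1.81 CPM in Untreated, with a log2 change of 3.43 ± 0.31 (adjusted p = 5.7e-06). Untreated 1 was its highest untreated library, and the groups did not overlap. Ephx1, an epoxide hydrolase, rose by a log2 of 2.18, Phlda3, a repressor of Akt signalling, by 2.21, and Zmat3, an RNA-binding protein, by 2.14. Inka2 rose by 1.79 and Ccng1, cyclin G1, by 1.36.

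The window upstream of Cdkn1a is shown because it is a classical p53 target. Among the 20 risen targets with a window, only Cdkn1a held a pair of p53 half-sites close to its start. The RefSeq sequence (GRCm38.p6, chr17:29090729-29091028, forward strand) runs from 250 bases before the annotated start to 50 after it. Capitals mark the pair of exact matches to the half-site pattern, and inexact matches are not marked. It is 1 of the annotated starts of the gene, which lies at chr17:29090976-29100727.
Cdkn1a: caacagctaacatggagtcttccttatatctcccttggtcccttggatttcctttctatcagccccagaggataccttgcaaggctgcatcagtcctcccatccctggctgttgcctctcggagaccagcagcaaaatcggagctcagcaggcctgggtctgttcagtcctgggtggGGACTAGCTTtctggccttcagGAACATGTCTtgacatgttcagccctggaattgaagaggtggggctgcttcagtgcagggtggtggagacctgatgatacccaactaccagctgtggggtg
Windows of this kind were matched for 20 of the 24 risen targets, and 8 of them (40%) held at least 1 p53 half-site, against 8.51% of the 12195 tested genes with a window. A pair of half-sites at most 13 bases apart was found in 1 of the 20 and in 5 of the 12195. The targets were listed from knowledge of p53, so these shares are a description of the list. A half-site was also found in 7 of 28 risen interferon response genes with a window (25%). A match is a description of letters in the window and not a measured site.

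Not every p53 target rose. Mdm2, the ligase that degrades p53, lay at 78.9, 93.9, 83.3 and 95.5 CPM after S-PRT and at 77.1, 78.3, 80.8 and 77 CPM in Untreated. Its groups overlapped and its log2 change of 0.17 ± 0.09 did not pass (adjusted p = 0.179). Trp53inp1, a p53 co-activator, did not pass either, at 208 ± 31.6 against 189 ± 36.0 CPM (adjusted p = 0.547). Among the genes that fell were Btg2, an antiproliferative gene also induced early after many stimuli, with a log2 change of -0.72, and the nucleotide excision repair gene Xpc with -0.73. Ckap2 and Gtse1, which are p53 targets that also act at the mitotic spindle, had log2 changes of -0.71 and -0.39. The death genes Bax (0.87), Bbc3 (0.68), Pmaip1 (1.40) and the receptor Tnfrsf10b (1.83) rose, while Fas (0.14) did not pass. Apaf1, a scaffold of the death machinery, was the last of the 5 that fell (-0.55).

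Among 19 regulators of apoptosis, 3 rose (15.8%), 2 fell (10.5%) and 14 did not pass, with a median log2 change of -0.01. These shares lay near or under those of all genes, 13.3% rising and 15.2% falling. Bcl2l1 encodes Bcl-xL, a survival protein that maturing erythroid cells and platelets depend on. Its libraries held 62, 63.4, 63 and 46.7 CPM after S-PRT and 145, 133, 134 and 142 CPM in Untreated, so that every S-PRT library was below every untreated one (log2 change -1.23 ± 0.11). Bcl2 (0.45), Bcl2a1b (0.67) and the death gene Bcl2l11 (0.28) rose. Birc2 (-0.27), an inhibitor of apoptosis, was the other gene that fell, and it lost its call when S-PRT 1, S-PRT 2, Untreated 1, Untreated 2 or Untreated 3 was left out (adjusted p up to 0.0858).

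**Figure D2:**
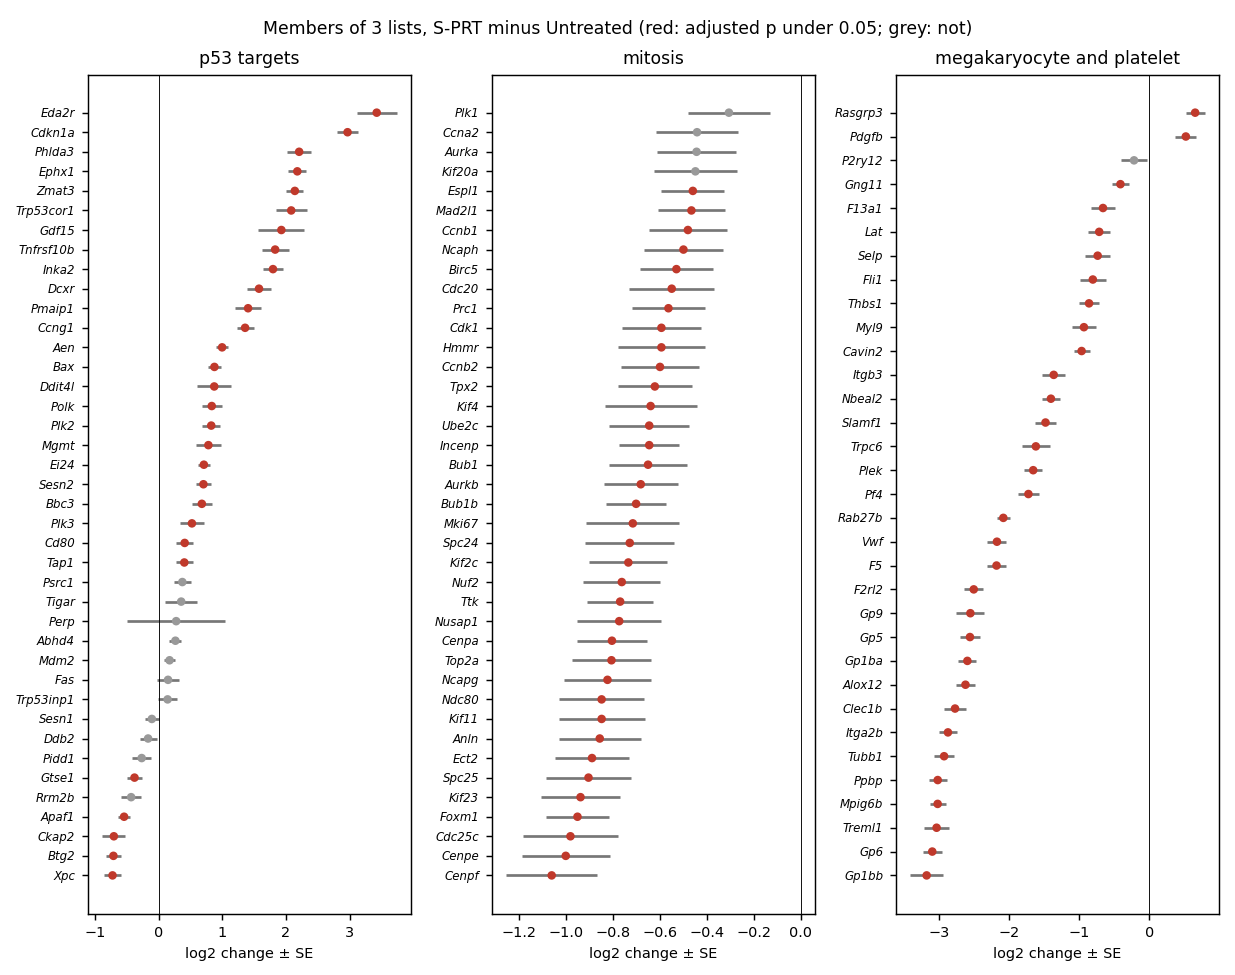
Log2 change from Untreated to S-PRT (x axis, with its SE) of tested p53 targets, mitosis genes and platelet genes, with 1 platelet gene not drawn; red points passed the test and grey ones did not. The p53 targets run from -0.73 to 3.43, all 40 mitosis genes lie below 0, and 31 of the 34 megakaryocyte and platelet genes fell.

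Genes of mitosis fell. Of 40 tested, 36 fell (90%), 0 rose and 4 did not pass, and the median log2 change was -0.69. Foxm1, the transcription factor of late cell cycle genes, lay at 53, 48.6, 49 and 33.6 CPM after S-PRT and at 77.4, 98.9, 86.5 and 93.6 CPM in Untreated (log2 change -0.95 ± 0.13, adjusted p = 0.000175). S-PRT 4 was the lowest library and the groups did not overlap. Mki67, the proliferation antigen Ki-67, lay at 1450, 1820, 1900 and 1050 CPM after S-PRT and at 2890, 2720, 2310 and 2290 CPM in Untreated (log2 change -0.72 ± 0.20, adjusted p = 0.016). Kif23, a kinesin of the dividing bridge, changed by -0.94, Ect2, which places the cleavage furrow, by -0.89, and the spindle checkpoint kinases Ttk and Bub1b by -0.77 and -0.70. Cenpf (-1.06), Cenpe (-1.002) and Cdc25c (-0.98) were the members furthest below 0. Plk1, Ccna2, Aurka and Kif20a were the 4 that did not pass, at log2 changes from -0.45 to -0.31. Leaving out 1 library left 28 to 36 members past the test.

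Genes of DNA replication moved less. Of 39 tested, 3 fell (Pola1, Uhrf1 and Gins1, at log2 changes of -0.55, -0.52 and -0.50) and 36 did not pass, with a median of -0.24. All but 1 member, Ccne1, had values below 0. The 7.69% that fell were under the 15.2% background, and the count moved with single libraries, from 0 without S-PRT 4 or without Untreated 2 to 9 without S-PRT 3. It was 1 without S-PRT 1 or Untreated 3, and 5 without Untreated 1 or F-PRT 1. The difference between the mitosis and replication lists was not tested. Among 34 genes of double-strand break repair, 10 fell (29.4%), 1 rose (2.94%) and 23 did not pass (median -0.29). Lig4, the ligase of non-homologous end joining, fell from 13.3 ± 2.21 to 7.44 ± 0.505 CPM (adjusted p = 0.000705), while Xrcc5, which encodes Ku80 of the same pathway, rose from 14.9 ± 0.456 to 19.6 ± 0.569 CPM (adjusted p = 0.00297). The count of 10 also moved with single libraries. It was 2 without Untreated 2, 3 without S-PRT 1 or S-PRT 4, 5 without Untreated 1 and 6 without S-PRT 2, Untreated 3, Untreated 4 or F-PRT 2. The damage kinases Atm (0.04) and Atr (-0.03) did not pass.

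Promoter windows of the fallen mitosis genes are shown because late cell cycle promoters are known for a short element called CHR, TTTGAA, and for CCAAT boxes bound by the factor NF-Y. Both were searched on both strands, and a CCAAT can share its last base with the first of a TTTGAA. The 3 windows are those of smallest p with both motifs (RefSeq, GRCm38.p6, Ect2 at chr3:27153829-27154128 and Kif23 at chr9:61946750-61947049 on the reverse strand, Bub1b at chr2:118597961-118598260 on the forward strand). Capitals mark TTTGAA and CCAAT, with ATTGG being CCAAT read on the other strand.
Ect2: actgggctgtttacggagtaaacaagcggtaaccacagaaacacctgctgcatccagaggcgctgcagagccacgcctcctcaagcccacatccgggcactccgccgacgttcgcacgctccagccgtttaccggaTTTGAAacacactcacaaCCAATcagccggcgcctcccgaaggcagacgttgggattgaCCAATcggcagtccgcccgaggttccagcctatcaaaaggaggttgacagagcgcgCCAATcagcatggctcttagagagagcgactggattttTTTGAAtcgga
Bub1b: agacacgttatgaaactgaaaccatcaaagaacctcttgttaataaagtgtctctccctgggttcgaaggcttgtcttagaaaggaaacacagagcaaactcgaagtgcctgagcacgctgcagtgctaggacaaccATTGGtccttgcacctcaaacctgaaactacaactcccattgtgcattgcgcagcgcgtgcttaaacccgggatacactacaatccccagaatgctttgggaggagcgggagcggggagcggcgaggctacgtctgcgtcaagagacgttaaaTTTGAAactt
Kif23: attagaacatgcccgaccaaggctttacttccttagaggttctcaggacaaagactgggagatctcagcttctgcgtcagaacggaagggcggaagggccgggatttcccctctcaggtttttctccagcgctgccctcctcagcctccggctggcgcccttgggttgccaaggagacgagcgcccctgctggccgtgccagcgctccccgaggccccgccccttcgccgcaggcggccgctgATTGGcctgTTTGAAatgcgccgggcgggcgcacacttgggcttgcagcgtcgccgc
TTTGAA was found in 22 of 30 fallen mitosis genes with a window (73.3%). It was found in 3 of 33 replication genes with a window, fallen or not (9.09%), and in 15.2% of all tested genes with a window. CCAAT was found in 73.3% of the fallen mitosis genes, 60.6% of the replication genes and 42.3% of all. Over all 32851 windows of the same length, including genes not expressed here, the shares were 17.9% and 37.4%. Because 36 of the 40 listed mitosis genes fell, the mitosis shares are a description of the list.

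Granulocyte genes fell. Of 28 genes of neutrophil specific and gelatinase granules, 23 fell (82.1%) and 5 did not pass, with a median log2 change of -3.27. Ltf encodes lactoferrin, the iron-binding protein of specific granules. Its libraries held 62.5, 23.8, 22 and 16.6 CPM after S-PRT and 527, 1370, 1760 and 1980 CPM in Untreated (log2 change -5.49 ± 0.51, adjusted p = 5.96e-06). Untreated 1 was the lowest untreated library, yet lay well above S-PRT 1, the highest treated one. Ngp, neutrophilic granule protein, held 247, 100, 109 and 85.3 CPM against 1650, 4410, 6000 and 6450 CPM. Ceacam10, an adhesion molecule, lay at or below 0.422 CPM in every S-PRT library and at or above 7.16 CPM in every untreated one (log2 change -5.58 ± 0.39). Padi4, the enzyme that citrullinates histones in neutrophils, fell by 3.77 on the log2 scale, Camp, the cathelicidin precursor, by 5.27 and Ltb4r1, a leukotriene receptor, by 3.29. Mmp9 (0.30), Cyba, Hp, Arg1 and Lrg1 were the members that did not pass.

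Earlier granules and mature cell markers were lower too. Of 20 genes of azurophil granules and granulocyte precursors, 15 fell (75%), 2 rose and 3 did not pass (median -1.62). The groups overlapped on the mean log2 CPM of this list, with S-PRT 1 at 5.40 and Untreated 1 at 5.31. The ranges were 4.59 to 5.40 after S-PRT and 5.31 to 6.72 in Untreated. Fcnb, ficolin B, lay at 8.22, 4.28, 5.55 and 3.54 CPM after S-PRT and at 26.9, 70.9, 91 and 98.6 CPM in Untreated (log2 change -3.73 ± 0.36). Cebpe, the transcription factor of terminal granulocyte differentiation, changed by -3.69, Gfi1, its partner in neutrophil fate, by -1.80, Myb, a factor of immature blood cells, by -1.58 and the receptor Igsf6 by -1.66. Mpo, myeloperoxidase, fell as well (log2 change -1.96), but it lay at 465, 193, 279 and 175 CPM after S-PRT and at 350, 1030, 1340 and 1600 CPM in Untreated, so Untreated 1 fell within the S-PRT range. Cebpa (0.58) and the protease gene Ctsc (0.90), both also used outside this lineage, rose, and 1 of these 2 calls was lost without S-PRT 1. Of 28 mature neutrophil genes, 21 fell (75%) and 7 did not pass (median -1.38). The resistin-like gene Retnlg (-4.48), the formyl peptide receptor Fpr2 (-2.99), the activating receptor Trem1 (-2.48), the glucose transporter Slc2a3 (-2.09) and the inhibitory receptor Lilr4b (-1.33) fell, while the inflammatory genes Il1b (0.00) and Ptgs2 (0.91) did not pass.

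Eosinophil and basophil genes fell. Of 21 eosinophil, basophil and mast cell genes tested, 12 fell (57.1%), 2 rose (9.52%, under the 13.3% of all genes) and 7 did not pass (median -1.44). The mean log2 CPM of the list was 1.21 to 2.40 after S-PRT and 1.90 to 3.99 in Untreated, and Untreated 1, the lowest untreated library, lay within the S-PRT range. Prg3, an eosinophil granule protein, fell from 10.4 ± 9.08 to 0.590 ± 0.376 CPM and Prss34, a basophil protease, from 32.8 ± 11.8 to 5.26 ± 1.59 CPM. Hdc, which makes histamine, fell by 2.04 on the log2 scale. Ear1, an eosinophil ribonuclease, fell by 5.56 on that scale with overlapping groups, and it belongs to a family of near-identical genes whose reads the counting could split. The 2 that rose were mast cell proteases, Cma1 and Tpsb2, while the mast cell genes Cpa3 (0.12) and Mcpt4 (0.69) did not pass. Cma1 held 3.31, 1.87, 5.55 and 2.09 CPM after S-PRT and 0.759, 0.381, 0.667 and 0.201 CPM in Untreated, a 6.54-fold higher level (adjusted p = 0.000853).

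Megakaryocyte and platelet genes fell. Of 34 tested, 31 fell (91.2%), 2 rose and 1, P2ry12, did not pass, with a median log2 change of -1.91. Gp6 encodes the platelet receptor for collagen. It lay at 4.79, 5.87, 5.61 and 4.55 CPM after S-PRT and at 47.5, 46, 42.9 and 42.2 CPM in Untreated (log2 change -3.10 ± 0.14, adjusted p = 1.21e-08). The untreated libraries, Untreated 1 among them, lay within a narrow range far above the treated ones. Ppbp, the platelet chemokine precursor, lay at 89, 89.9, 76.4 and 70.8 CPM against 582, 679, 693 and 692 CPM. Mpig6b, an inhibitory platelet receptor, changed by -3.02 ± 0.12 and Rab27b, which acts in granule transport, by -2.08 ± 0.09. Vwf, von Willebrand factor, which is also made by endothelium, lay at 38.2 to 61.9 CPM after S-PRT and at 217 to 239 CPM in Untreated. Itgb3, the beta 3 integrin of platelets and osteoclasts, changed by -1.37. The 2 members that rose, Pdgfb (0.52) and Rasgrp3 (0.65), are also expressed by endothelium. The count of 31 was 30 to 31 with any 1 library left out, and the count of 2 was 1 without S-PRT 1, S-PRT 4, Untreated 2 or Untreated 4.

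Promoter windows of Mpig6b and Gp6 are shown because megakaryocyte genes are known targets of GATA1, whose motif is searched here as AGATAA on both strands (RefSeq, GRCm38.p6, reverse strand, chr17:35066135-35066434 and chr7:4397695-4397994). Capitals mark it, TTATCT being AGATAA on the other strand.
Mpig6b: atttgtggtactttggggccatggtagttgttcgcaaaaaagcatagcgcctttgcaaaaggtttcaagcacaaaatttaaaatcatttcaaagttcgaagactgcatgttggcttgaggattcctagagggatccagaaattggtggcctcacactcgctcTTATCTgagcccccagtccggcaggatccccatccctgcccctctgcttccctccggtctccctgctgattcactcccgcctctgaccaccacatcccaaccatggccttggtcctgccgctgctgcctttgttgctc
Gp6: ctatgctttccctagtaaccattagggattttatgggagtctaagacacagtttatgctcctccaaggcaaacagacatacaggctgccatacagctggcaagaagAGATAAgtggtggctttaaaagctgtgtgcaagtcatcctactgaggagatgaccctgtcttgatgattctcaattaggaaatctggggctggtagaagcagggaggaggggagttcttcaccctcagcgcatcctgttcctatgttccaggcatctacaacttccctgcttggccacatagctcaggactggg
AGATAA was found in 6 of 24 fallen megakaryocyte genes with a window (25%), in 4 of 10 fallen globin and red cell membrane genes (40%) and in 8.4% of all tested genes with a window. Most tested members of these lists fell, so the shares are a description of the lists. Gata1 itself had a log2 change of -0.23 and did not pass.

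Red cell genes were lower, by smaller folds. Of 21 genes of globins and the red cell membrane, 15 fell (71.4%) and 6 did not pass (median -0.69), a count of 9 without the 3 libraries that stand apart most (Untreated 1 and, for their keratin or muscle RNA, F-PRT 2 and F-PRT 3). Hbb-bs lay at 5760, 6040, 7210 and 4390 CPM after S-PRT and at 15000, 20900, 19400 and 21100 CPM in Untreated (log2 change -1.71 ± 0.21). Globin genes together took 1.75 to 2.79% of counts after S-PRT and 3.88 to 6.56% in Untreated, and the groups did not overlap. Hbb-bt (-1.57), Hba-a1 (-1.37) and Hba-a2 (-1.29) fell as well, but the globin copies are nearly identical and the counting could split their reads. Epb41, a protein of the membrane skeleton, fell from 1173 ± 67.8 to 492 ± 92.4 CPM. Of 19 genes of haem synthesis and iron uptake, 9 fell, 1 rose (Steap3, 0.38, a call lost without any 1 of 6 libraries, namely S-PRT 1, 2 or 3 or Untreated 2, 3 or 4) and 9 did not pass (median -0.49). Alas2, the first enzyme of haem synthesis in red cells, lay at 331 to 553 CPM after S-PRT and at 988 to 1220 CPM in Untreated. Of 21 erythroid regulators, 11 fell and 10 did not pass (median -0.48), a count of 7 without S-PRT 2, S-PRT 4 or Untreated 2. Xpo7 (-1.44), Trim58 (-1.22), Nfe2 (-1.14), Bnip3l (-1.08) and E2f2 (-0.999) fell, while Klf1 (-0.17) and Epor (-0.33), the receptor for erythropoietin, did not pass. S-PRT 4 was the lowest S-PRT library on average for all 3 red cell lists.

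Genes of early B cell development fell. Of 28 early B cell genes, 19 fell (67.9%) and 9 did not pass (median -0.80). Rag1 lay at 1.43, 1.11, 1.63 and 1.26 CPM after S-PRT and at 39.6, 70.8, 79.4 and 62.6 CPM in Untreated (log2 change -5.53 ± 0.29, adjusted p = 4.8e-08). Its partner Rag2 lay at 0.228, 0.484, 0.302 and 0.506 CPM against 3.25, 13, 11 and 8.11 CPM. Vpreb3 (-3.17), Cplx2 (-2.01) and Cecr2 (-1.54) fell, as did the surrogate light chain genes Igll1 (-4.74) and Vpreb1 (-4.52). Cd79a, a chain of the receptor complex carried through the lineage, had overlapping groups at 51.7, 21.1, 71.9 and 57.9 CPM against 28.5, 79.7, 107 and 81.5 CPM (adjusted p = 0.282). Pax5 (-0.70) did not pass. Of 34 mature B cell genes, 7 rose (20.6%), 9 fell (26.5%) and 18 did not pass (median 0.12). Siglecg (-1.02) and Cd37 (-0.72) fell, and Ciita (1.10), Gimap4 (1.03) and the plasma cell factor Prdm1 (1.07) rose. The count that fell was 5 without S-PRT 1, S-PRT 2, Untreated 2 or Untreated 3, and the count that rose was 11 without S-PRT 2.

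Some stem and progenitor genes fell. Of 28 tested, 8 fell (28.6%), 4 rose (14.3%, near the 13.3% of all genes) and 16 did not pass (median -0.14). Prom1, which encodes CD133, lay at 3.71, 2.42, 2.35 and 2.59 CPM after S-PRT and at 16.9, 24.2, 24.3 and 23.9 CPM in Untreated (log2 change -3.005 ± 0.26). Slamf1 (-1.48), which encodes the stem cell antigen CD150, Meis1 (-1.13) and Lyl1 (-0.73) fell. Slamf1 is also on the megakaryocyte list. Kit (-0.29), Cd34 (-0.16) and Flt3 (-0.42), receptors and surface antigens of progenitors, did not pass, and Ly6a, which encodes Sca-1 and is also made by vessels, rose by 1.13. The 4 that rose were 2 without S-PRT 1, S-PRT 4, Untreated 2 or Untreated 3.

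**Figure D3:**
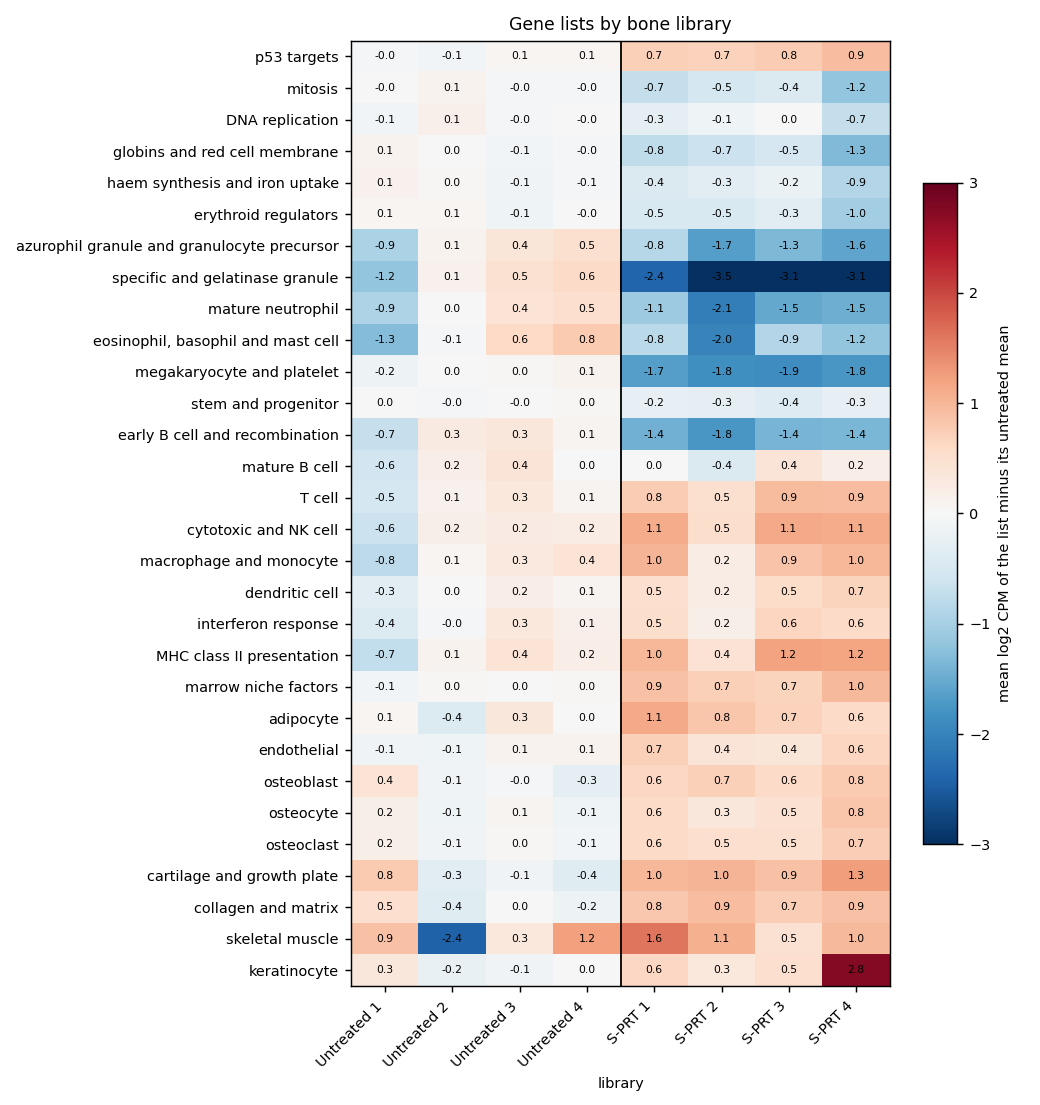
Mean log2 CPM of 30 gene lists (rows) in each of the 8 libraries (columns), minus the mean of the 4 untreated libraries; colours saturate at 3 either way. Platelet genes are lower in all 4 S-PRT libraries and alike in Untreated, while Untreated 1 is lower than the other untreated libraries for the granulocyte, early B cell, T cell and macrophage lists and higher for cartilage and collagen.

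T cell genes rose. Of 28 tested, 19 rose (67.9%), 3 fell and 6 did not pass (median 1.02). Cd8a lay at 13.8, 13.7, 17.1 and 21.1 CPM after S-PRT and at 4.56, 5.87, 8.27 and 5.49 CPM in Untreated, with no overlap (log2 change 1.43 ± 0.22, adjusted p = 0.000323). The costimulator Icos (1.27), Thy1 (1.17), the receptor kinase Zap70 (1.08) and the factor Tcf7 (0.78) rose. The 3 that fell, Il7r (-1.07), Lef1 (-0.72) and Lat (-0.72), are also on the early B cell or platelet lists. Summed levels of the list ran from 255 to 384 CPM after S-PRT and from 156 to 301 CPM in Untreated. Of 21 cytotoxic and natural killer cell genes, 12 rose and 9 did not pass (median 0.99), with Eomes (1.31), Il2rb (1.27), perforin Prf1 (1.20), Ctsw (0.98) and Klrk1 (0.91) of smallest p. S-PRT 2 was the lowest treated library for this list, and Untreated 1 the lowest untreated one.

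Macrophage and antigen presentation genes rose. Of 37 macrophage and monocyte genes, 24 rose (64.9%), 3 fell and 10 did not pass (median 0.90). The groups overlapped on the mean log2 CPM of this list, at 5.65 to 6.44 after S-PRT and 4.64 to 5.84 in Untreated, with S-PRT 2 below Untreated 3 and Untreated 4. Maf, a transcription factor of resident macrophages, lay at 213, 204, 235 and 279 CPM after S-PRT and at 95.9, 88.7, 94.2 and 95.7 CPM in Untreated (log2 change 1.31 ± 0.11, adjusted p = 3.44e-06). Every S-PRT library lay well above the untreated ones. Ms4a7 (1.84), Trem2 (1.31), Csf1r, the receptor for the macrophage growth factor, (0.90) and Mertk, which engulfs dying cells, (0.89) rose, and Csf1, the ligand, rose by 1.14. The 3 that fell were Ly6c2, a marker of newly made monocytes (-1.90), the lysozyme Lyz2 (-1.05) and F13a1 (-0.66), which is also on the platelet list, while the monocyte receptor Ccr2 (0.22) did not pass. Of 15 genes of MHC class II presentation, 11 rose (73.3%) and 4 did not pass (median 0.90). H2-Ab1 lay at 311, 187, 311 and 306 CPM after S-PRT and at 50.3, 108, 125 and 105 CPM in Untreated, with S-PRT 2 the lowest treated and Untreated 1 the lowest untreated library (log2 change 1.52 ± 0.24). H2-Eb1 (1.58), H2-Aa (1.52), the class II transactivator Ciita (1.10) and Ifi30 (0.98) rose. Of 20 class I genes, 8 rose and 12 did not pass (median 0.33), among them H2-Q7 (0.67) and H2-K1 (0.64), whose family members share reads. The count of 8 was 5 without S-PRT 1, S-PRT 3, S-PRT 4 or Untreated 2.

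Some dendritic cell genes rose. Of 23 tested, 10 rose (43.5%), 3 fell (13%, under the 15.2% of all genes) and 10 did not pass (median 0.44). Xcr1, the chemokine receptor of cross-presenting dendritic cells, lay at 6.16, 5.18, 7.24 and 6.19 CPM after S-PRT and at 1.74, 0.762, 1.13 and 0.268 CPM in Untreated (log2 change 2.73 ± 0.36). Batf3 (1.58), the factor of the same subtype, Clec10a (2.01) and Fscn1 (1.10) also rose, but its receptor Clec9a (-0.26) did not pass. Siglech, the marker of plasmacytoid dendritic cells, lay at 7.42, 5.53, 9.71 and 8.53 CPM against 12.3, 25.5, 34.9 and 27.3 CPM (log2 change -1.69 ± 0.31), and Ccr9 (-0.60) and Dpp4 (-0.68) were the others that fell. The 3 were 1 without S-PRT 1, S-PRT 2, Untreated 2 or Untreated 3 and 5 without Untreated 1.

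Interferon response genes rose in part. Of 70 tested, 38 rose (54.3%), 7 fell and 25 did not pass (median 0.53). Cxcl9, a chemokine induced by interferon gamma, lay at 62.7, 43, 62.2 and 51.9 CPM after S-PRT and at 6.07, 10.1, 13.1 and 9.65 CPM in Untreated (log2 change 2.48 ± 0.20, adjusted p = 2.11e-06). Cxcl10, another ligand of the receptor CXCR3, lay at 13, 8.22, 14.4 and 10.4 CPM against 1.52, 2.13, 3.53 and 2.01 CPM. The guanylate-binding protein Gbp5 (1.18) and Phf11d (1.29) rose. Slfn4, a schlafen gene of myeloid cells, went the other way: it lay at 31.4, 28.7, 21.6 and 27.6 CPM after S-PRT and at 176, 150, 162 and 145 CPM in Untreated (log2 change -2.53 ± 0.13, adjusted p = 5.31e-08). Isg15 (-0.44) and Irf7 (0.53), central members of the type I response, did not pass. The 7 that fell were 12 without Untreated 1.

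Windows of Cxcl10 and Gbp5 are shown because interferon-stimulated genes are known for an element of repeated GAAA, searched here as a pair of GAAA with any 2 bases between them on both strands (RefSeq, GRCm38.p6, chr5:92348840-92349139 on the reverse and chr3:142496684-142496983 on the forward strand). Capitals mark it, a pair of TTTC being its form on the other strand.
Cxcl10: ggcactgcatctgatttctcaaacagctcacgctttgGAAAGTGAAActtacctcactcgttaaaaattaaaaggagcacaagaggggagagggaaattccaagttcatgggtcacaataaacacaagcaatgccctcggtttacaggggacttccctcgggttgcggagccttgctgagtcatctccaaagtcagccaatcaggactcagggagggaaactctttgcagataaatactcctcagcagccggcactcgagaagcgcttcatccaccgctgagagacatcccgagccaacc
Gbp5: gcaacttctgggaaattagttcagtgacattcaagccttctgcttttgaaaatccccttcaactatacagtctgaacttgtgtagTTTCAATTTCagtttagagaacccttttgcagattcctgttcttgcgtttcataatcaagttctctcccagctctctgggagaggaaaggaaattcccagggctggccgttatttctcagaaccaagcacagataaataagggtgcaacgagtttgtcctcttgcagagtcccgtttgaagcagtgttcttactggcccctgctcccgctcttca
It was found in 21 of 28 risen interferon genes with a window (75%), against 3.92% of all tested genes with a window and 3.44% of all windows. Interferon response genes were listed from knowledge of this response, so the share is a description of the list.

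Of 34 chemokines and inflammatory cytokines tested, 16 rose (47.1%), 4 fell and 14 did not pass (median 0.91). Cxcl13 lay at 25, 32.4, 47.7 and 44.2 CPM after S-PRT and at 0.759, 1.45, 0.867 and 0.737 CPM in Untreated (log2 change 5.27 ± 0.33, adjusted p = 2.54e-07). No untreated library came near the lowest treated one. Cxcl16 (1.60) rose, as did the monocyte attractants Ccl2 (2.28), Ccl7 (2.86), Ccl8 (2.37) and Ccl12 (2.73). Cxcl5, a neutrophil attractant, changed by -2.27, and Tnf (-0.77) and Il1a (-0.91) fell. Il6, Csf2, Csf3 and 5 other members were too low to test.

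Niche genes of the marrow stroma rose. Of 27 tested, 20 rose (74.1%), 1 fell and 6 did not pass (median 0.90). Il7, the growth factor of early lymphocytes, lay at 20.4, 20.2, 24.9 and 26.2 CPM after S-PRT and at 5.1, 7.62, 8 and 7.1 CPM in Untreated (log2 change 1.71 ± 0.15, adjusted p = 3.56e-06). Gas6, the ligand of the receptors Axl and Mertk, lay at 389, 346, 380 and 465 CPM against 73.7, 123, 114 and 126 CPM. Kitl, stem cell factor, rose by 0.97, Ebf3, a factor of CXCL12-rich stroma, by 0.86 and Esm1 of vessels by 1.57. Cxcl12, the chemokine that holds stem cells in marrow, rose by 0.67 on the log2 scale. Angpt1, the ligand of the receptor Tie2, fell (-0.39) and the leptin receptor Lepr (0.34), a marker of this stroma, did not pass. Across 24 cytokines, receptors and feedback genes that support blood, 7 rose (29.2%), 6 fell (25%) and 11 did not pass (median 0.05). The receptors Il7r (-1.07) and Csf2ra (-0.94) fell, while the ligands Il7, Kitl and Csf1 rose and Thpo (1.12) did not pass.

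**Figure D4:**
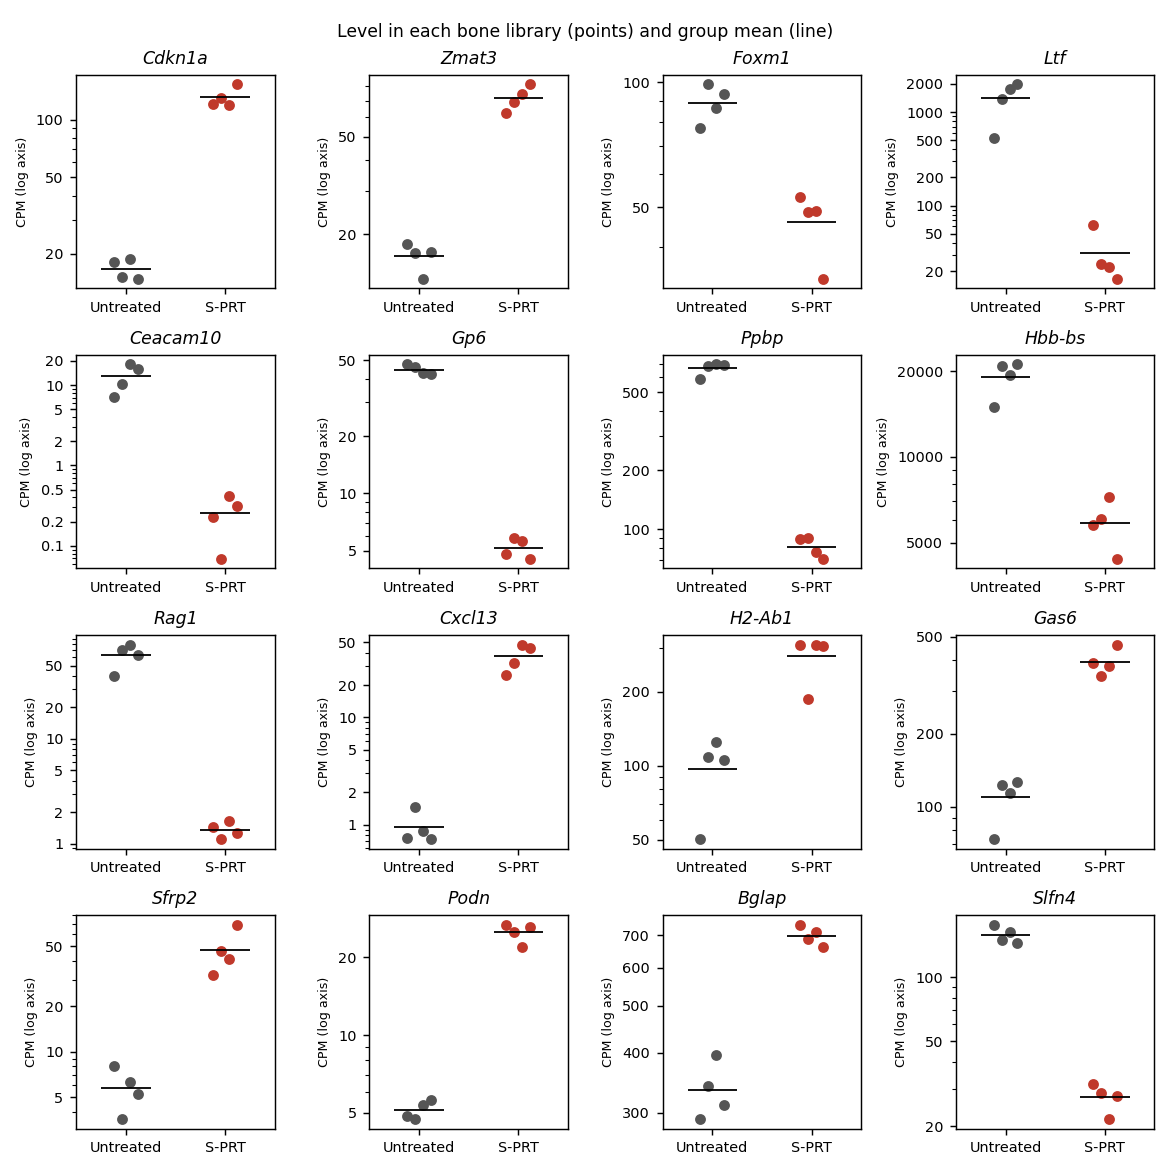
Level in CPM (log y axis, scaled separately for each gene) of 16 genes in the 4 Untreated (grey) and 4 S-PRT (red) libraries, with each group mean as a line. The 16 were taken from genes named for a small p or a large change. None of them has overlapping groups, as is so for 26.4% of all genes tested. Gp6 holds 4.55 to 5.87 CPM after S-PRT and 42.2 to 47.5 CPM in Untreated.

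Adipocyte genes rose. Of 25 tested, 17 rose (68%), 0 fell and 8 did not pass (median 0.83). Lpl, lipoprotein lipase, lay at 607, 604, 533 and 592 CPM after S-PRT and at 156, 238, 235 and 244 CPM in Untreated (log2 change 1.42 ± 0.14, adjusted p = 8.86e-06). The lipid droplet protein Plin1 (1.35), the synthase Fasn (1.30), the adipogenic receptor Pparg (1.15) and Lpin1 (1.01) rose. Lep (0.95) and Cd36 (0.03) did not pass. The 17 were 10 without S-PRT 1 and 11 without Untreated 2.

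Bone cell genes rose by smaller amounts, and their counts turned on single libraries, untreated and treated. Of 31 osteoblast genes, 17 rose (54.8%) and 14 did not pass (median 0.58). Bglap lay at 737, 687, 713 and 662 CPM after S-PRT and at 291, 340, 396 and 311 CPM in Untreated (log2 change 1.06 ± 0.15, adjusted p = 0.000186). Col1a1, the main collagen of bone, lay at 24800, 27800, 24100 and 26600 CPM against 19400, 12900, 13400 and 11000 CPM, Untreated 1 being nearest to the treated libraries (log2 change 0.86 ± 0.24, adjusted p = 0.0159). Sparc (1.07), Omd (0.99), Bglap2 (0.92) and Car12 (2.02) rose, and the master factors Runx2 (-0.08) and Sp7 (0.50) did not pass. The 17 were 10 without S-PRT 4 or Untreated 2, 9 without Untreated 4 and 28 without Untreated 1, F-PRT 2 and F-PRT 3. Of 18 osteocyte genes, 6 rose, 1 fell (Cd44, -0.38, a call lost without any 1 of the 4 S-PRT libraries or Untreated 2, 3 or 4) and 11 did not pass (median 0.66), with 10 rising without Untreated 1. Dmp1 (1.02), Irx5 (0.82) and Enpp1 (0.70) rose. Sost (0.80), which encodes sclerostin, did not pass.

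Osteoclast genes rose. Of 28 tested, 19 rose (67.9%), 2 fell and 7 did not pass (median 0.76). Ctsk, the protease that digests bone collagen, lay at 571, 541, 496 and 606 CPM after S-PRT and at 413, 274, 301 and 226 CPM in Untreated (log2 change 0.87 ± 0.23, adjusted p = 0.0129). Tnfrsf11a, which encodes the receptor RANK, lay at 51.5, 50.8, 45.8 and 60.2 CPM against 28, 19.3, 21.4 and 19.6 CPM. The calcitonin receptor Calcr (1.89) and the factor Mitf (0.85) rose, and so did RANK's ligand Tnfsf11 (0.62) and its decoy Tnfrsf11b (1.05). Itgb3 (-1.37), which is also on the platelet list, and Pstpip2 (-0.85) were the 2 that fell.

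Cartilage genes had a high median, but most of them did not pass. Of 30 tested, 9 rose (30%), 1 fell (Sox6, -0.67, a call lost without S-PRT 1, S-PRT 4, Untreated 1 or Untreated 2) and 20 did not pass (median 1.02). Chad, chondroadherin, lay at 330, 324, 233 and 359 CPM after S-PRT and at 121, 84.7, 86.8 and 93.5 CPM in Untreated (log2 change 1.69 ± 0.32). Col2a1, the collagen of cartilage, lay at 917, 892, 826 and 1050 CPM against 834, 289, 307 and 236 CPM and did not pass (adjusted p = 0.105), Untreated 1 lying within the range of S-PRT. Without Untreated 1, Col2a1 passed as a rise (log2 change 1.76, adjusted p = 0.0111, edgeR's quasi-likelihood test). Sox9 (1.37), Cytl1 (1.499), Snorc (1.84) and Ucma (2.84) rose. The count of 9 was 22 without Untreated 1, 15 without F-PRT 3 and 5 without S-PRT 4 or Untreated 2. Of 15 tendon and joint lining genes, 7 rose and 8 did not pass (median 0.78), with 11 rising without Untreated 1, 4 without Untreated 2 and 3 without Untreated 3.

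Collagen and matrix genes rose. Of 46 collagens and matrix genes, 32 rose (69.6%), 0 fell and 14 did not pass (median 0.70). Podn, podocan, a small proteoglycan, lay at 26.8, 25.1, 22 and 26.3 CPM after S-PRT and at 4.88, 4.73, 5.34 and 5.63 CPM in Untreated (log2 change 2.28 ± 0.11, adjusted p = 1.79e-08). It held the smallest p of any gene that rose. Col8a1, a short-chain collagen, lay at 166, 287, 298 and 338 CPM against 57.3, 51, 52.8 and 52.4 CPM. Bgn, biglycan, rose by 1.505, and the basement membrane chains Col4a1 and Col4a2 by 1.36 and 1.30. Col3a1 (0.22), Fn1 (0.48) and Postn (0.42), genes often raised in scarring, did not pass. Untreated 1 lay nearer to S-PRT than the other untreated libraries did for this list, and without it 41 members rose.

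Secreted modulators of Wnt and activin, Sfrp2 and Fst, were among the 12 largest rises. Of 28 Wnt modulators and targets, 15 rose (53.6%), 1 fell and 12 did not pass (median 0.63). Sfrp2, a secreted Wnt modulator, lay at 32.4, 46.3, 40.8 and 69.3 CPM after S-PRT and at 8.03, 3.58, 6.27 and 5.23 CPM in Untreated (log2 change 3.05 ± 0.30, adjusted p = 9.71e-06). Its relative Sfrp1 rose by 2.21, the activators Rspo3 and Rspo2 by 1.80 and 1.38, and Porcn, which acylates Wnt ligands, by 1.44. The Wnt target Axin2 (0.40) did not pass. Of 42 genes of the TGF-beta and BMP pathways, 20 rose (47.6%), 2 fell and 20 did not pass (median 0.40). Fst, follistatin, which binds activin, lay at 32, 45.5, 42.3 and 52 CPM against 7.59, 6.02, 8.07 and 4.35 CPM, while Inhba, the chain of activin A, lay at 5.99, 9.81, 5.55 and 5.82 CPM against 23.9, 31, 32.7 and 36.2 CPM. The 2 genes thus moved in opposite directions, by log2 changes of 2.73 ± 0.20 and -2.19 ± 0.21. Tgfb1 did not pass (237 ± 38.3 against 281 ± 53.5 CPM, adjusted p = 0.234), and Tgfb3 (0.83), the coreceptor Tgfbr3 (0.94) and Ltbp2 (1.56) rose. Without Untreated 1, Tgfb1 passed as a fall (log2 change -0.34, adjusted p = 0.0448, edgeR's quasi-likelihood test). It also passed in limma's fit with voom quality weights.

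Endothelial genes rose. Of 34 tested, 22 rose (64.7%), 2 fell and 10 did not pass (median 0.67). Stab1, a scavenger receptor of marrow sinusoids, lay at 230, 235, 206 and 313 CPM after S-PRT and at 83.7, 70.7, 69.5 and 79.2 CPM in Untreated (log2 change 1.70 ± 0.16). Mmrn2 (1.44), the coreceptor Eng (1.09) and Aplnr (1.05) rose. The 2 that fell were Vwf (-2.18) and Erg (-0.66), which are also on blood cell lists, and 1 of these calls was lost without S-PRT 2 or Untreated 3. Pecam1 (0.19), common to vessels and platelets, did not pass.

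Stress and housekeeping genes were also counted. Of 29 genes of the NRF2 redox defence, 5 rose (17.2%), 8 fell (27.6%) and 16 did not pass (median -0.08). Gsr, glutathione reductase, lay at 142, 100, 117 and 116 CPM after S-PRT and at 193, 306, 337 and 370 CPM in Untreated, and Gpx1 (-0.91) and Slc7a11 (-1.26) fell, while Me1 (1.23) rose. Of 27 immediate early genes, 8 rose (29.6%), 3 fell (11.1%) and 16 did not pass (median 0.23), with Fos (1.04), Egr1 (0.88) and Jun (0.73) rising and Ppp1r15a (-1.06) falling. The 8 were 5 without S-PRT 1 or S-PRT 4, and the 3 were 5 without Untreated 1. Of 26 heat shock and unfolded protein genes, 5 rose (19.2%, against 13.3% of all genes) and 21 did not pass (median 0.10). Of the 5, Hspd1 (0.40) and Hsph1 (0.50) kept their calls with each library left out. The 5 were 2 without S-PRT 1 and 3 without S-PRT 3. Of 40 nuclear genes of oxidative phosphorylation, 4 rose (10%, under the 13.3% of all genes) and 36 did not pass (median 0.19). The count that rose was 1 without S-PRT 1, S-PRT 4, Untreated 2, Untreated 3 or F-PRT 1. It was 2 without F-PRT 4 and 8 without Untreated 4. Of 13 mitochondrially encoded genes, 1 fell (7.69%, under the 15.2% of all genes) and 12 did not pass, but 9 rose without Untreated 1. The gene that fell was mt-Nd3 (-0.75), a call lost without S-PRT 1, S-PRT 2, S-PRT 4 or Untreated 1.

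**Figure D5:**
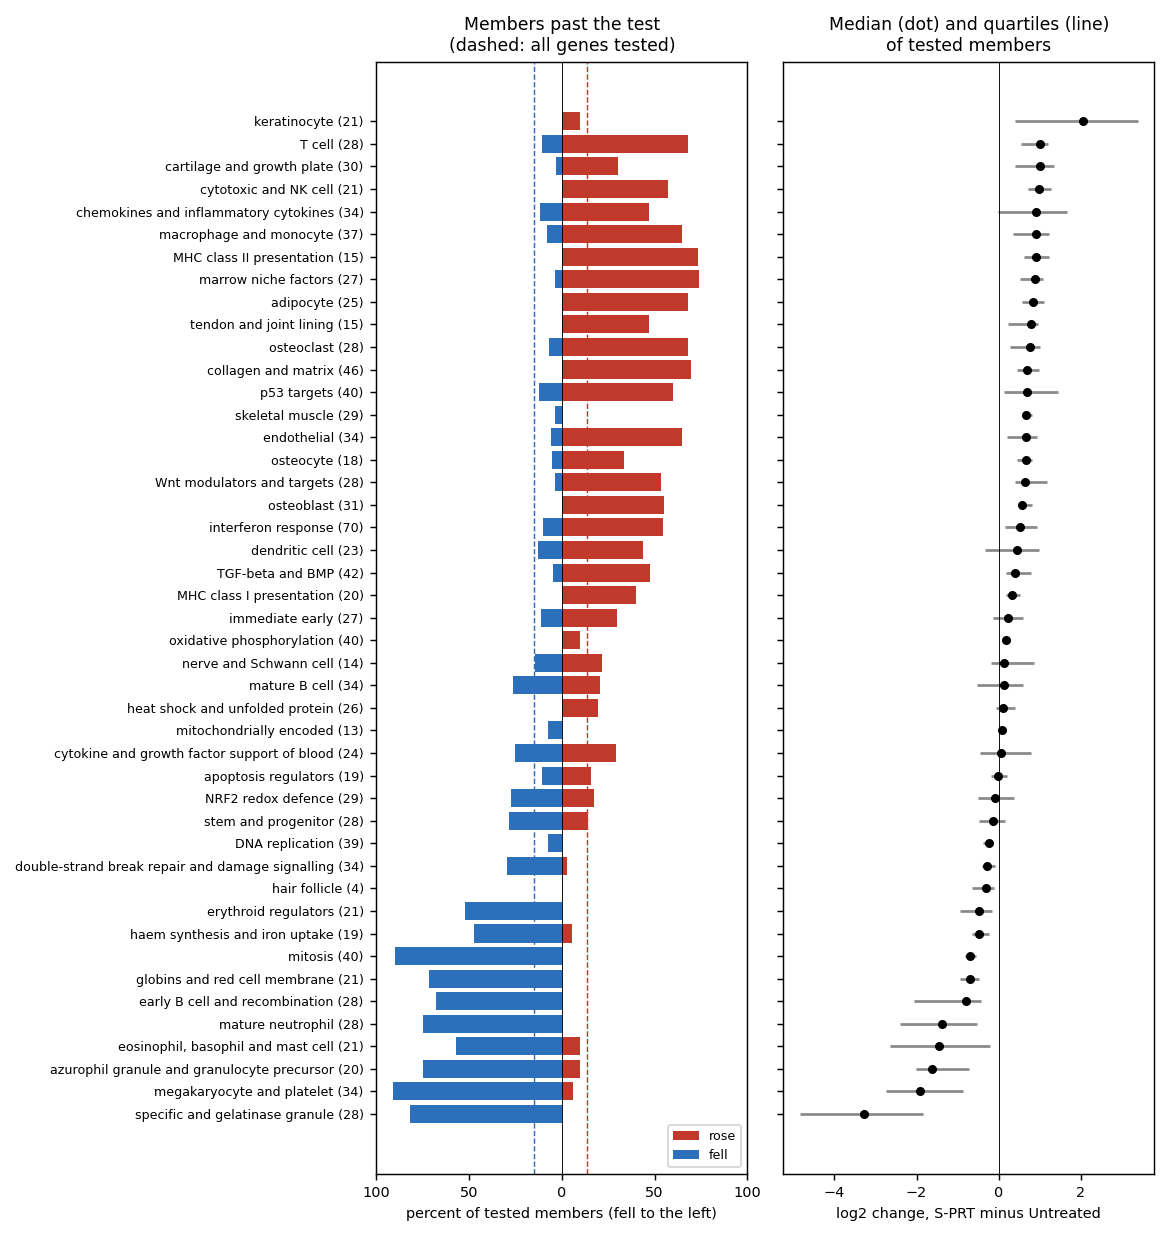
For each of the 45 gene lists (number tested in brackets), the left panel gives the percentage of tested members that rose (red, to the right) or fell (blue, to the left), with the shares over all genes, 13.3% and 15.2%, dashed; the right panel gives the median log2 change and quartiles. Specific granule (median -3.27) and platelet genes (median -1.91) are lowest, and the keratinocyte list has a median of 2.05 with 2 of 21 members called.

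Markers of tissues around the bone were also measured. Of 29 skeletal muscle genes, 1 fell (Tnnt1, -1.86), 0 rose and 28 did not pass, with a median of 0.68. The 3.45% of muscle genes that fell were under the 15.2% of all genes. Their summed level ran from 7320 to 17700 CPM after S-PRT and from 906 to 12600 CPM in Untreated, Untreated 2 being the lowest. Tnnt1 lost its call without Untreated 4 (adjusted p = 0.0555). Of 21 keratinocyte genes, Trp63 and Calml3 rose (9.52%, under the 13.3% of all genes) and 19 did not pass. The summed level was 84.3 CPM in S-PRT 4, 21.6 to 24.8 CPM in the other S-PRT libraries and 19.2 to 21.4 CPM in Untreated, and Krt5 was at 0 in Untreated 3 and Untreated 4. Both calls were lost without S-PRT 1, S-PRT 4, Untreated 2 or Untreated 3, and 1 was lost without S-PRT 2, S-PRT 3, Untreated 1 or Untreated 4. Of 4 hair follicle genes tested, 0 passed, and 16 others were too low to test. Of 14 nerve and Schwann cell genes, 3 rose (Pmp22, Egr2 and Ncmap), 2 fell (Gfap and Mbp) and 9 did not pass. These nerve shares were 21.4% rising and 14.3% falling, against 13.3% and 15.2% of all genes. The part of these tissues in the changes above was not tested.

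The same genes were then compared between the 2 beams. Of 18848 genes, 1 differed between the beams at an adjusted p under 0.05 (0.00531%), with 634 at an unadjusted p under 0.05. That gene was Slfn4, at 31.4, 28.7, 21.6 and 27.6 CPM after S-PRT and 54.2, 53.9, 46.4 and 65.6 CPM after F-PRT, both below the 145 to 176 CPM of Untreated. The log2 difference was -1.01 (adjusted p = 0.043), and the call was lost when any 1 of 10 of the 12 libraries was left out, namely each S-PRT library, Untreated 2, 3 or 4, or F-PRT 1, 2 or 4 (adjusted p up to 0.277). Cdkn1a lay at 109, 139, 99.4 and 169 CPM after F-PRT, a wider range that holds that of S-PRT. Ltf lay at 32, 18.3, 28.4 and 21.1 CPM after F-PRT, and Gp6 at 7.29, 4.9, 5.78 and 4.91 CPM. The mean log2 CPM of the 70 interferon response genes was 4.74 to 5.20 after S-PRT and 5.49 to 5.81 after F-PRT. In Untreated it was 4.14 to 4.88. The 2 beams thus did not overlap on this list mean, which is 1 of 45 and was not tested. Nor did they overlap on the 4 hair follicle genes tested, at 0.79 to 1.17 after S-PRT and 0.33 to 0.69 after F-PRT. A difference that does not pass the test is not shown to be absent.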

How the data were processed

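PolyA RNA of bone was sequenced as paired reads in 12 libraries, 4 each for S-PRT, Untreated and F-PRT, and the group of a library was read from its treatment label. The deposited values were expected counts per gene, which the authors made with RSEM, per the file headers; per the submitters' processing notes, FastQC, cutadapt and STAR and the build GRCm38 were also used, for which the sources used here give no version. Each file held 55471 genes, of which 55230 matched GENCODE M21 by identifier. Expected counts were rounded and tested with edgeR 4.0.16 (R 4.3.3): TMM scaling, filterByExpr, quasi-likelihood F test over the 12 libraries, and Benjamini-Hochberg adjustment over 18848 genes with a threshold of 0.05. CPM use TMM library sizes, and list means are of log2 CPM with a prior count of 2. The procedure was tested on simulated data. Precision depends on the spread between libraries and on their depth, with totals of 10909649 to 17361430 counts per library.

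The comparison and the 45 gene lists (1217 distinct genes, 60 entries not tested) were chosen with earlier results of these data known, so lists are described by counts and medians. Named genes were a panel (Cdkn1a, Mdm2, Ccng1, Trp53inp1, Mki67, Tgfb1, Col1a1, Ctsk, Col2a1), the 12 largest rises and 12 largest falls among protein-coding genes averaging 2 CPM or more, without overlap and stable when libraries were left out, and up to 5 members of smallest p in each list. The largest rises and falls left out names that start with Gm and a number or end in Rik. Alternatives were DESeq2 1.42.0, limma 3.58.1 with voom quality weights, RLE scaling, 2 other filters, a replicate block, the 8 libraries alone and each library left out. Added after seeing the data were fits without Untreated 1, F-PRT 2 and F-PRT 3 and without ribosomal RNA, 7SK and 7SL models. Promoter windows were RefSeq's (GRCm38.p6). Results for some genes are not reported here.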

Additional observations from a re-analysis of the deposited data

Results flagged for a closer look

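Among the 4 libraries of a group, 1 library stood apart from the other 3 in 7 of 108 checks of library makeup and list means; chance alone would give about 1 in 20. S-PRT 2 had the highest mitochondrial share of its group (5.73%) and the highest mean log2 CPM of mitochondrially encoded genes (10.77). Untreated 1 was likewise high in its group, at 6.81% and 11.38. Both libraries were low for the cytotoxic and natural killer cell genes, with mean log2 CPM of 1.48 in S-PRT 2 and 0.30 in Untreated 1. S-PRT 4 was high for the keratinocyte genes, with a mean log2 CPM of 1.91.

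Between the beams, Slfn4 differed by a log2 of -1.01 (S-PRT minus F-PRT, adjusted p = 0.043 with edgeR's quasi-likelihood test), and every S-PRT library lay below every F-PRT library.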

How the results depend on the processing

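The counts of genes that passed, rose or fell between S-PRT and Untreated stayed within 1.5 times the reported value in every alternative run, with 4054 to 6380 genes passing. The replicate block gave 4917 genes, 4775 of them shared with the reported calls, and DESeq2 gave 5880, with 5341 shared. Replicate numbers did not pair the libraries: correlations of same-numbered deviations ran from -0.26 to 0.06, and 0 libraries correlated best with their own number. Without the filter on low counts, 41800 genes were tested and 57.4% of the calls were rises (2765 against 2048 falls), and 46.7% as reported. The RLE scaling moved the median of all genes to 0.005 from -0.006. Of the 5380 calls, 3567 (66.3%) held with every library left out in turn, as did 192 of the 213 named genes that passed. The largest rises and falls among the named genes were chosen partly for holding in those fits, and list members for a small p. The count of 192 is thus partly set by that choice and cannot be compared with the 66.3% of all calls. Without Untreated 1, 3231 genes rose and 2927 fell (52.5% rises), so that rises outnumbered falls.

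The single call between S-PRT and F-PRT moved. There were 21 calls with DESeq2, 11 without the filter on low counts, 0 with the replicate block, and 0 to 1 with 1 library left out. The adjusted p of Slfn4 ran from 9.63e-10 (DESeq2) to 0.277 (without S-PRT 4), and was 0.141 with the replicate block. The cause was not tested. Fewer libraries and fewer residual degrees of freedom enter the fits that leave out a library. Genes near 1 CPM rest on few counts, which limits their precision.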

Other observations

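Some genes of low counts were counted mostly in the libraries of one group. Gzme, a granzyme gene, had 81 expected counts summed over the 4 S-PRT libraries and 3 over the 4 untreated ones. Svop, a synaptic vesicle gene, had 57 against 3, and Egfem1 had 29 against 2. In the other direction, BC100530, a stefin of neutrophils that is on the specific granule list, had 3 against 77, and Drc7 had 3 against 85. The unnamed models Gm37206 and Gm47204 had 0 against 119 and 60 against 0. These counts are too low for a fold, and the genes were chosen for their counts after these were seen.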
